A study of Homo sapiens with 15 samples.

Results

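The genes described here encode the 12 subunits of RNA polymerase II (Pol II), the TBP-associated factors (TAFs), Mediator, and the general factors TFIIA, TFIIE and TFIIF. They were chosen by name from the protein-coding genes of the read-count table. The rule took every POLR2 gene from A to L, TAF and MED genes whose names end in the number or in L after it, and the numbered genes of those 3 factors. Names with another ending, such as TAF4B and TAF9B, were left out. The rule found 67 of the 58676 genes in the table, and 64 of the 67 held enough reads to be tested among 14461 genes. The other 3 were GTF2A1L, with 0 counts in all 15 libraries, TAF1L, with 2 counts in DMSO, 2 in YKL-5-124 at 4 h and 0 elsewhere, and TAF7L, with 12 counts summed over the DMSO libraries and 4 to 10 over each treated group. By role the 67 comprise 7 subunits found in Pol II alone, 5 that Pol II shares with Pol I or Pol III, 7 genes of TFIIA, TFIIE and TFIIF, 13 TFIID TAFs, 5 other TAF-named genes, and 30 Mediator subunits.

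Total RNA was sequenced from PATU-8988T cells, a long-established line of human pancreatic cancer, after treatment with 1 of 2 compounds or with vehicle. The 5 groups of 3 libraries were vehicle (DMSO at 0.1%), THZ1 at 100 nM for 4 h, THZ1 at 100 nM for 24 h, YKL-5-124 at 100 nM for 4 h and YKL-5-124 at 100 nM for 24 h. The DMSO libraries carry no time and serve as the control for both times, so all comparisons with DMSO share 3 libraries. The labels number the libraries without saying that they came from separate cultures, so the p-values measure the spread between these libraries, which may be technical.

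Pol II transcribes every protein-coding gene. TFIID, built on TBP and the TAFs, binds the promoter, TFIIA and TFIIB steady it there, TFIIF brings the polymerase, and TFIIE recruits TFIIH, whose kinase CDK7 phosphorylates the tail of the largest subunit. Mediator relays signals from activators to this assembly through a head, a middle and a tail built on the scaffold MED14, and a detachable kinase module regulates it. THZ1 is a covalent inhibitor of CDK7 that also acts on CDK12 and CDK13, and YKL-5-124 is a covalent CDK7 inhibitor designed to spare those kinases.

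Total counts ranged from 15567057 to 22869590 per library. Of 7 epithelial markers KRT8 lay between 1091 and 1647 CPM (counts scaled to the library total), KRT18 between 133 and 627 and EPCAM between 12.7 and 36.4, but in DMSO CDH1 (E-cadherin) was at 0.245 to 0.341, KRT7 and MUC1 were under 1 and KRT19 was at 0. All 4 mesenchymal markers were present, with VIM between 151 and 226 CPM, and the T-cell marker CD3E was at 0. The 67 genes held 0.441% to 0.448% of the counts in DMSO, 0.386% to 0.405% in THZ1 at 4 h and 0.302% to 0.319% in THZ1 at 24 h, against 0.447% to 0.458% in YKL-5-124 at 4 h and 0.488% to 0.500% at 24 h. In the same THZ1 24 h libraries the mRNAs of ribosomal proteins took 20.8% to 23.1% of the counts, against 9.04% to 11.6% in DMSO, and the scaling factors (TMM) were 0.532 to 0.559 against 1.15 to 1.27. Apart from the others of their group in the balance of long against short transcripts stood DMSO replicate 2, THZ1 4 h replicate 1 and YKL-5-124 24 h replicate 3. Taken against the mean of all 15 libraries, the slope of log2 CPM on log2 exonic length was -0.0091, 0.228 and -0.0013 in DMSO. It was -0.123, 0.177 and 0.0923 in THZ1 at 4 h, and -0.377, -0.271 and -0.230 in THZ1 at 24 h. A lower slope means that short transcripts stood higher. Without the 3 libraries apart, DMSO keeps -0.0091 and -0.0013 against 0.177 and 0.0923 in THZ1 at 4 h. CPM below are scaled by the TMM factors, and fold changes are log2 differences from edgeR with their standard errors (SE). A gene is said to have risen or fallen where the quasi-likelihood test of edgeR, with Benjamini-Hochberg adjustment over all 14461 genes gave an adjusted p under 0.05.

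In vehicle-treated cells the members spanned more than 3 orders of magnitude. Per kilobase of exon, the highest level was that of POLR2L, the small shared subunit also called RPB10, at 244 ± 24.1 CPM per kb (SD, n = 3), which did not overlap the next. A close group followed, whose neighbours overlapped in level: MED10 (68.0 ± 14.1 CPM per kb), POLR2H (54.2 ± 15.7), POLR2E (53.7 ± 3.45), POLR2C (53.0 ± 11) and POLR2K (51.4 ± 13.7). The lowest were MED12L (0.101 CPM per kb), MED18 (0.148), MED17 (0.324) and MED26 (0.386). The median was 9.08 CPM per kb over the 64 members and 4.16 over the 12212 protein-coding genes tested. POLR2A, which encodes the catalytic largest subunit and its phosphorylated tail, stood at 2.15 CPM per kb against 35.7 for POLR2B, the second-largest subunit.

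At 4 h of THZ1 the deepest falls were those of MED9, MED7, GTF2E1, MED17 and MED26. Of the 64 members, 17 fell and 12 rose, where 25.1% of all genes fell and 16.9% rose, so the members' shares were near those of all genes. The members' median log2 fold change was 0.07, beside 0.00 over all genes. Of the 30 Mediator subunits 10 fell and 4 rose (median -0.30), of the 12 Pol II subunits 1 fell and 3 rose (median 0.43), and of the 16 TAF-named genes tested 4 fell and 4 rose. The count of members that rose was 3 with library totals as the scale and 0 with the 84 ribosomal protein mRNAs as the reference, which sets their summed level equal in all libraries, and 7 without THZ1 4 h replicate 3. In these fits 4.03%, 0.201% and 12.9% of all genes rose. Without the 3 libraries apart in transcript length, 20 members fell and 14 rose, where 24.1% and 17.9% of all genes did. That omission leaves THZ1 at 4 h above DMSO in the length slope, and its part in the calls was not tested. With the slope within groups as a covariate 23 fell and 20 rose, where 30.8% and 28.4% of all genes did.

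**Figure D1:**
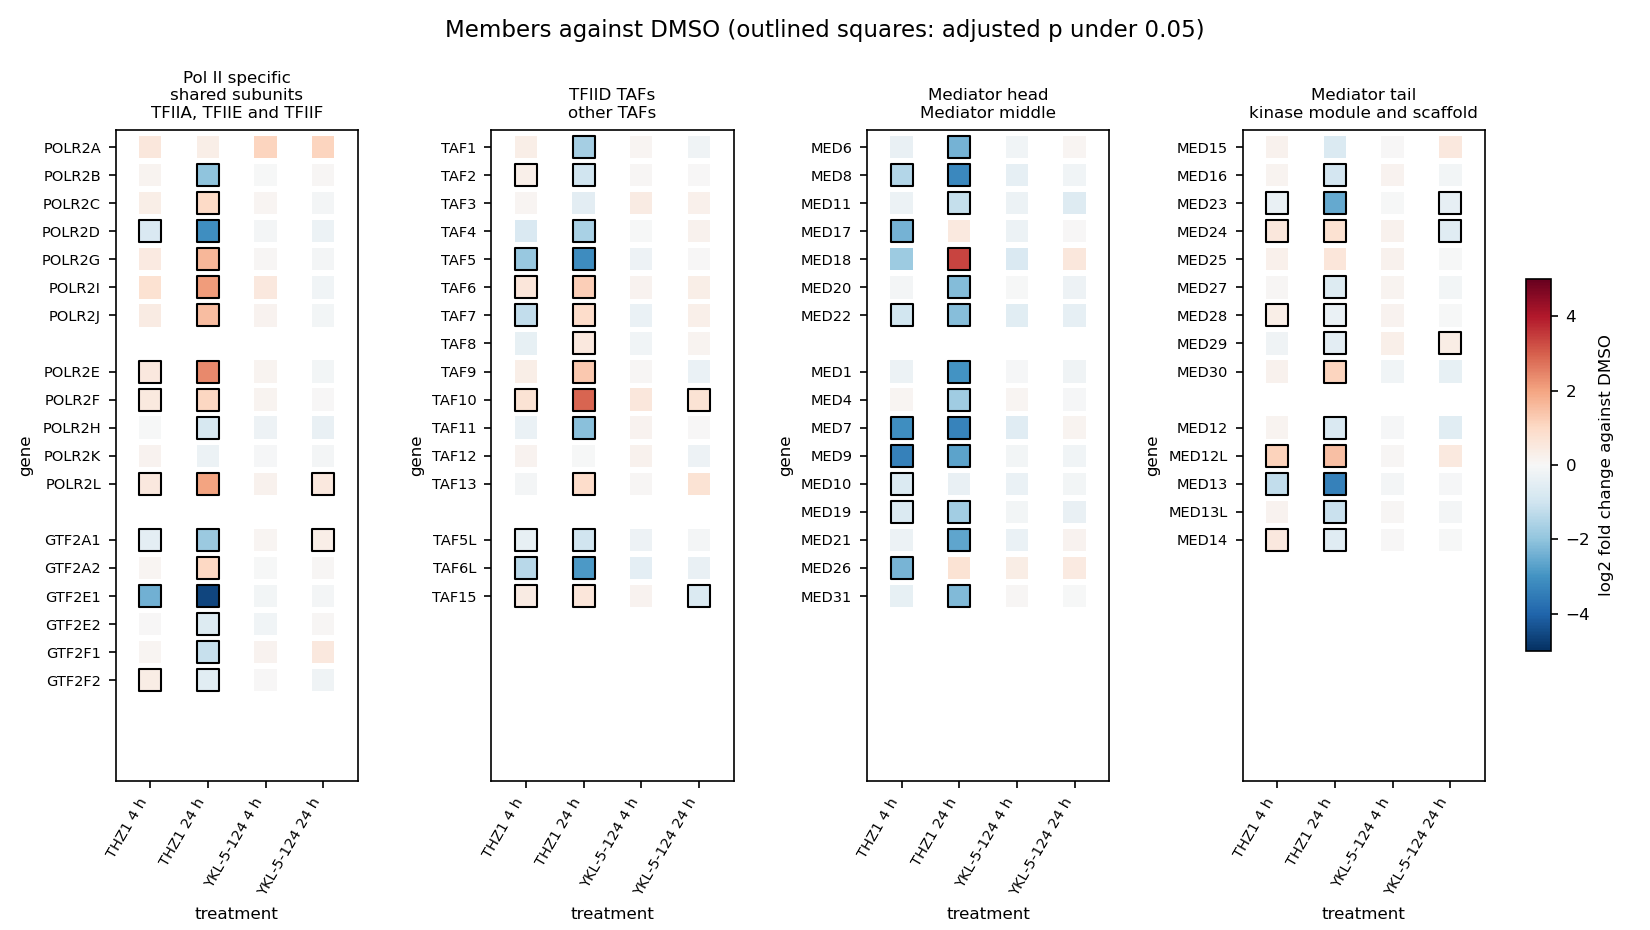
Log2 fold change against DMSO (colour, blue lower and red higher) of the 64 tested members (rows, in blocks by complex) in each treatment (columns), from 3 libraries per group; a black outline marks an adjusted p under 0.05. Outlines are few in the YKL-5-124 columns (0 at 4 h and 7 at 24 h), and in the THZ1 24 h column they mark 19 rises and 36 falls.

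The deepest early falls were in the Mediator middle. MED9 stood at 25.0, 20.2 and 22.2 CPM in DMSO and at 2.37, 2.76 and 1.4 CPM after 4 h of THZ1, and MED7, which pairs with MED21 as a hinge of that module, at 13.8, 10.2 and 15.8 against 1.47, 1.75 and 1.4. Neither gene's treated libraries overlapped the controls. The log2 fold changes were -3.37 (SE 0.21, edgeR adjusted p = 8.0e-09) for MED9 and -3.11 (SE 0.27, edgeR adjusted p = 3.4e-07) for MED7. MED26, the middle subunit that binds elongation factors, was at 1.15, 3.29 and 1.73 CPM in DMSO and 0.190, 0.371 and 0.652 at 4 h, a log2 difference of -2.33 (SE 0.42). MED10 and MED19 of the middle also fell, by 0.71 and 0.73 on the log2 scale, but MED10 missed the threshold without DMSO replicate 1 or 3 (edgeR adjusted p = 0.0591 and 0.0514) or THZ1 4 h replicate 2 (0.0660), and MED19 without DMSO replicate 1 or 3 (0.0631 and 0.0933) or THZ1 4 h replicate 2 or 3 (0.0838 and 0.0841). MED1, the large subunit that nuclear receptors contact, was at 70.2, 95.7 and 72.8 CPM in DMSO and 46.8, 82.3 and 64.1 at 4 h, so the groups overlapped, and the test did not call it (-0.31, SE 0.20).

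In the head, 3 of 7 subunits fell, where 25.1% of all genes did: MED17, on which the head is built, MED8 and MED22. MED17 went from 3.91, 3.25 and 3.33 CPM to 0.949, 0.583 and 0.512, with a log2 fold change of -2.34 (SE 0.31), and MED8 fell by 1.47. In the kinase module MED13, which ties the kinase to the core, fell from 87.8, 99.4 and 86.2 CPM to 30.5, 42 and 43.1 (log2 fold change -1.24, SE 0.14), whereas its paralogue MED13L was at 48.8, 75.2 and 48.5 CPM in DMSO and 39.5, 83.9 and 69.3 at 4 h and overlapped (0.16, SE 0.25). MED12 was not called (0.15, SE 0.30) and its low-level paralogue MED12L rose by 1.17 (SE 0.30), from 1.33, 1.51 and 0.969 CPM to 1.80, 3.92 and 2.89. Without the 3 libraries apart in transcript length MED12 (0.71, edgeR adjusted p = 0.0241) and MED13L (0.66, 0.00627) were called higher. That omission itself sets THZ1 at 4 h above DMSO in the length slope, and its part in these calls was not tested. The scaffold MED14 rose by 0.53 and the tail subunit MED24 by 0.58, with their levels in all 3 treated libraries above all 3 controls; both calls were lost with library totals as the scale, and that of MED14 also without THZ1 4 h replicate 3 (edgeR adjusted p = 0.0516). The tail subunit MED23, a target of growth-factor signalling, fell by 0.36 (SE 0.09), with 69.4, 74.1 and 68.8 CPM in DMSO and 54.2, 55.8 and 55 at 4 h.

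Of the TFIIE pair only the large subunit was called. GTF2E1, its large subunit, fell from 33.7, 29.6 and 31.7 CPM to 6.98, 4.35 and 6.38 (log2 fold change -2.42, SE 0.18, edgeR adjusted p = 4.8e-08), while GTF2E2, its small subunit, had 57.3, 40.9 and 53.3 CPM in DMSO and 56.6, 46.4 and 50.1 at 4 h (0.02, SE 0.15). GTF2A1 of TFIIA fell by 0.48 and GTF2F2 of TFIIF rose by 0.37. The GTF2F2 call was lost without DMSO replicate 2 (edgeR adjusted p = 0.119), without THZ1 4 h replicate 1 (0.0717) and without THZ1 4 h replicate 3 (0.0514), and its sign turned with ribosomal protein mRNAs as the reference (-0.13).

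Among the TAFs, TAF5, the WD-repeat core of TFIID, fell from 17.1, 18.5 and 17.7 CPM to 5.65, 5.09 and 3.44 (log2 fold change -1.91, SE 0.19). TAF6L, the TAF6 paralogue of the SAGA coactivator, fell by 1.4 (SE 0.22). TAF7, a TFIID subunit whose longest protein-coding transcript is annotated with 1 exon, fell from 164, 102 and 151 CPM to 75.3, 52.5 and 50.1 (-1.23, SE 0.21). TAF10, a histone-fold subunit of both TFIID and SAGA, rose from 5.59, 5.42 and 4.8 CPM to 10.3, 8.54 and 7.54 (0.74, SE 0.21), a call lost with library totals. TAF6 (0.60, SE 0.20) and TAF15 (0.42, SE 0.16) rose and TAF5L fell (-0.41, SE 0.13), all by small amounts that missed the threshold when a library was left out. For TAF6 these were replicates 1 and 3 of DMSO (edgeR adjusted p = 0.0783 and 0.0968) and replicates 2 and 3 of THZ1 at 4 h (0.122 and 0.0780). For TAF15 the same 4 omissions gave 0.146, 0.0995, 0.183 and 0.119, and for TAF5L DMSO replicates 1 and 3 and THZ1 4 h replicate 1 gave 0.0770, 0.0674 and 0.0516. TAF1, the scaffold subunit with bromodomains, was not called (0.33, SE 0.29), but was without the 3 libraries apart in transcript length (0.82, edgeR adjusted p = 0.0104) and with that slope as a covariate (0.31, 0.00929). The omission itself sets THZ1 at 4 h above DMSO in the slope, and its part in the TAF1 call was not tested.

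Among the Pol II subunits 4 of 12 were called at 4 h, where 25.1% of all genes fell and 16.9% rose. POLR2D, one of the stalk subunits, fell from 39.3, 40.5 and 39.6 CPM to 24.9, 21.2 and 24.8 (log2 fold change -0.75, SE 0.13). The shared subunits POLR2E, at 275, 242 and 266 CPM in DMSO and 413, 352 and 351 at 4 h, and POLR2L, at 291, 248 and 299 against 439, 369 and 384, each rose by 0.51 (SE 0.10). POLR2F also rose by 0.51 (SE 0.18). All 3 lay just below 0 with ribosomal protein mRNAs as the reference: POLR2E was at -0.0077, POLR2L at -0.0041 and POLR2F at -0.00026. The POLR2F call was lost with library totals (0.25), with only the groups compared (edgeR adjusted p = 0.0730), without the 3 libraries apart in transcript length (0.15), and without DMSO replicate 2 (edgeR adjusted p = 0.149) or THZ1 4 h replicate 1 (0.179).

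At 24 h of THZ1 most members were called, as were most of all genes. Of the 64 members 36 fell and 19 rose, where 44% of all genes fell and 32.3% rose. The median log2 fold change was -0.67 over the members and -0.37 over all genes. Without the 3 libraries apart in transcript length 37 fell and 22 rose, where 43.5% and 32.7% of all genes did. By complex, 7 of the 12 Pol II subunits rose and 3 fell (median 1.04), 7 TAF-named genes rose and 7 fell, 1 of the 6 TFIIA, TFIIE and TFIIF genes rose and 5 fell (median -0.92), and 21 of 30 Mediator subunits fell and 4 rose (median -1.01). The rises depend on the scale: with library totals 7 members rose and the Pol II median was -0.08, and with ribosomal protein mRNAs as the reference 1 member rose and the Pol II median was -1.11, as the median of all genes went to -1.49 and -2.55. Of all genes 15.7% and 3.97% rose with these scales. Under each of the 5 scalings the Pol II median lay above the median of all genes and the Mediator median below it. A change of scale moves the log2 fold changes of all genes by nearly the same amount. The order of the medians could therefore hardly change, and the 5 scalings are not separate tests of it.

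**Figure D2:**
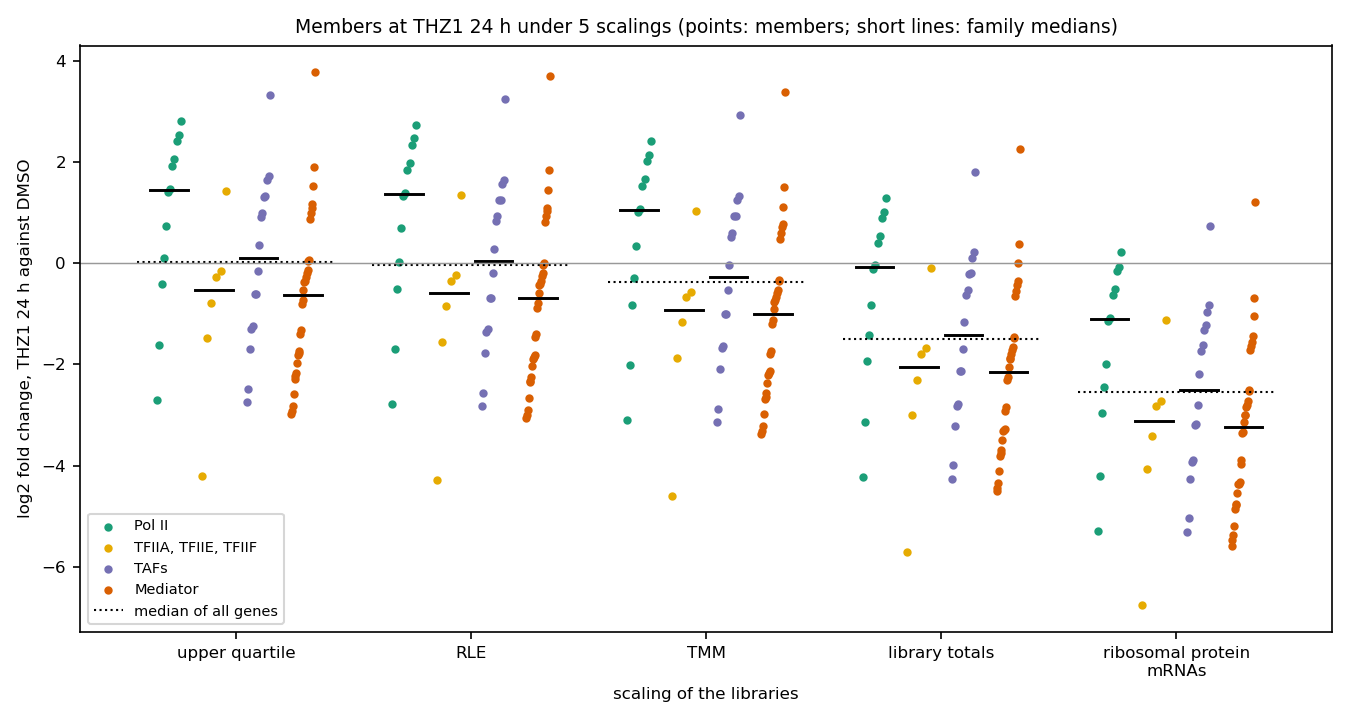
Log2 fold change of the members at THZ1 24 h against DMSO (vertical axis; 1 point per member, coloured by family, short black lines the family medians) under 5 ways of scaling the libraries (horizontal axis); dotted lines are the median of all genes tested. The Pol II median is 1.04 with TMM and -1.11 with ribosomal protein mRNAs as the reference, while the Mediator median is -1.01 and -3.24.

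The rises among Pol II subunits were large with TMM scaling, in libraries where short transcripts stood higher than in DMSO. Among those that rose, POLR2L, POLR2I, POLR2J and POLR2G have 1142, 1269, 1355 and 1923 exonic bases, beside a median of 4013 over the tested members. POLR2C, POLR2E and POLR2F have 3940, 4865 and 7042. The transcript-length covariate is centred within each group and does not adjust for this difference between groups. The part of length in the rises was not tested. POLR2E, shared by all 3 nuclear polymerases, reached 1369, 1369 and 1406 CPM at 24 h against 275, 242 and 266 in DMSO (log2 fold change 2.40, SE 0.10, edgeR adjusted p = 2.0e-11), and POLR2L reached 1180, 1151 and 1053 CPM (2.01, SE 0.11). POLR2I, a zinc-binding subunit that acts in start-site choice and proofreading, was at 5.11, 7.20 and 6.07 CPM in DMSO and 25.1, 36.1 and 20 at 24 h (2.14, SE 0.30). POLR2G, the other stalk subunit, rose from 95.3, 68.1 and 95.8 CPM to 316, 263 and 236 (1.65, SE 0.19), and POLR2J (1.53), POLR2F (1.07) and POLR2C (1.01) rose as well. For each of POLR2E, POLR2L, POLR2I and POLR2G the 3 treated libraries lay above the 3 controls. With ribosomal protein mRNAs as the reference POLR2E kept its sign but was not called, and the other 6 turned: POLR2L was at -0.16, POLR2I at -0.08, POLR2G at -0.51, POLR2J at -0.63, POLR2F at -1.08 and POLR2C at -1.15. With library totals POLR2F was at -0.05 and POLR2C at -0.11.

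POLR2D and POLR2B, the latter picked out after its values were seen, went the other way. POLR2B had 227, 191 and 212 CPM in DMSO, 241, 211 and 233 at 4 h and 58.2, 48.1 and 49.6 at 24 h, a log2 fold change at 24 h of -2.02 (SE 0.11, edgeR adjusted p = 2.8e-10). POLR2D reached 3.38, 5.21 and 5.22 CPM (-3.10, SE 0.15). The shared subunit POLR2H fell by 0.82 (SE 0.27), with 204, 114 and 193 CPM in DMSO and 123, 82.9 and 83.5 at 24 h, so the groups overlapped. That call was lost with RLE or upper-quartile factors, in DESeq2, and without DMSO replicate 1 (edgeR adjusted p = 0.0527) or either of THZ1 24 h replicates 2 and 3 (0.0588 and 0.0563). POLR2K was not called (-0.30, SE 0.25).

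**Figure D3:**
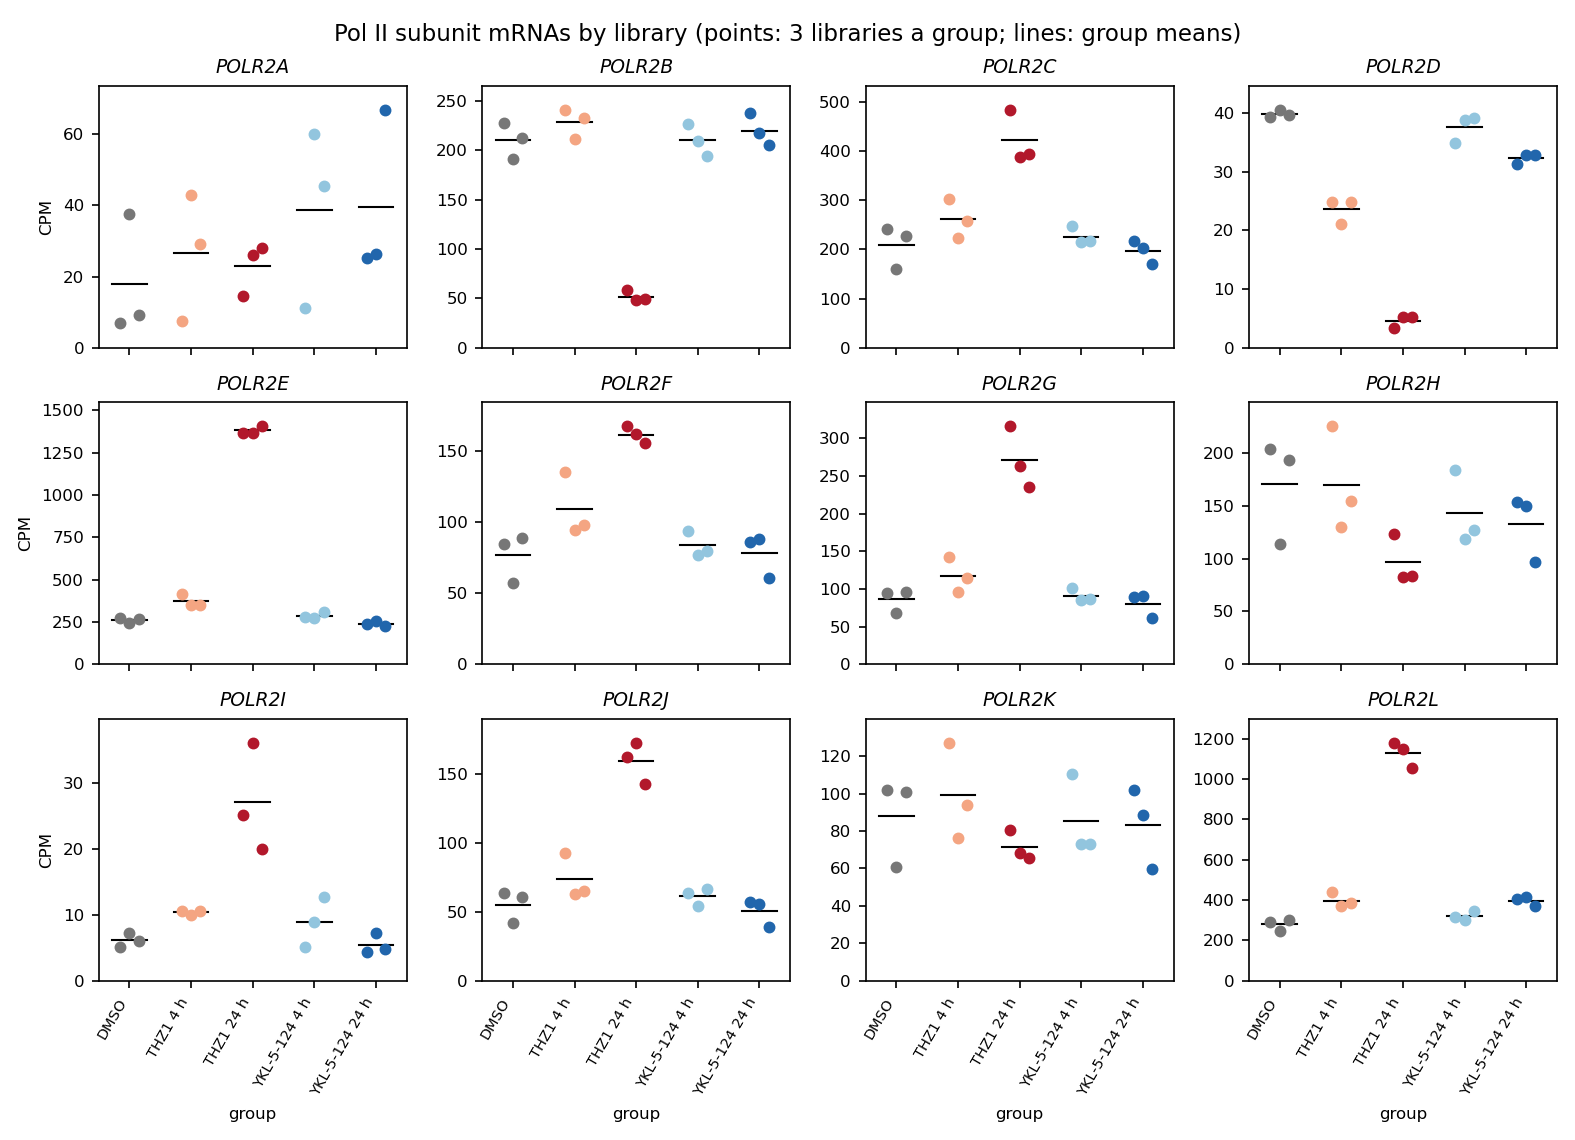
TMM-scaled CPM (vertical axis, from 0) of the 12 Pol II subunit mRNAs in the 5 groups (horizontal axis); each point is a library and each line the mean of 3. POLR2B and POLR2D drop at THZ1 24 h while POLR2E and POLR2L climb to over 1000 CPM, and POLR2A varies within every group.

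POLR2A could not be placed with the others, since its libraries differed within every group. Its CPM were 7.10, 37.4 and 9.35 in DMSO, 7.64, 42.8 and 29.2 in THZ1 at 4 h, 14.6, 26.0 and 27.9 in THZ1 at 24 h, 11.1, 59.9 and 45.3 in YKL-5-124 at 4 h, and 25.2, 26.3 and 66.7 in YKL-5-124 at 24 h. All groups overlapped, and in the group fit no comparison with DMSO called it: the log2 differences were 0.56, 0.35, 1.11 and 1.13 (SE 0.70 to 0.72). In all 5 groups its highest library was the one in which long transcripts stood highest against short ones, measured as the slope of each gene's deviation from its group mean on transcript length. The same held for MED1, MED12, MED15 and TAF6, and the reverse, the lowest level in that library in all 5 groups, for GTF2E2, MED8, MED10, MED19, POLR2F, POLR2G, POLR2J and POLR2L. With this slope as a covariate POLR2A was called in all 4 comparisons, with log2 differences of 0.62, 0.66, 1.26 and 1.36, although the slope comes from the same counts as the test. Without the 3 libraries apart in transcript length it was called at THZ1 4 h (2.13, edgeR adjusted p = 0.00517), at THZ1 24 h (1.48, 0.0164) and at YKL-5-124 24 h (1.64, 0.0411), and stood at 2.23 at YKL-5-124 4 h (0.0515). That omission drops DMSO replicate 2, the DMSO library highest in the slope and in POLR2A, and its part in these calls was not tested. At YKL-5-124 24 h the fit with the replicate number as a block (1.4, edgeR adjusted p = 0.0214) and the fit without DMSO replicate 2 (2.26, 0.0379) called POLR2A too. With no filter on low counts it was called at THZ1 4 h, YKL-5-124 4 h and YKL-5-124 24 h, with edgeR adjusted p values of 0.00862, 5.6e-07 and 1.2e-08. Its THZ1 24 h difference was -0.82 with library totals and -1.99 with ribosomal protein mRNAs as the reference, and over the omissions of single libraries it ran from -0.03 without DMSO replicate 1 to 1.48 without DMSO replicate 2.

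By median, Mediator fell most in its head and middle at 24 h of THZ1. In the head 5 of 7 subunits fell (median -2.14) and in the middle 7 of 9 (median -2.22), where 44% of all genes fell. In the tail 5 of 9 fell (median -0.53) and in the kinase module with MED14 4 of 5 (median -0.76). By count called, the kinase module did not trail the head. The difference between modules was not tested. MED7 stayed low at 2.17, 0.919 and 0.939 CPM (log2 fold change -3.33, SE 0.31). MED8 reached 4.59, 2.45 and 1.77 CPM from 32.6, 20.6 and 27.6 (-3.22, SE 0.28), and MED13 reached 8.70, 8.98 and 8.56 CPM (-3.38, SE 0.16, edgeR adjusted p = 6.9e-11). MED1 fell to 8.21, 9.49 and 12.4 CPM (-2.98, SE 0.23) and MED23 to 12.7, 11.8 and 11.3 (-2.57, SE 0.10), both clear of all controls. MED13L fell by 1.12 and MED14 by 0.59, although MED14 was not called with RLE or upper-quartile factors or in DESeq2.

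MED12 fell by 0.76 (SE 0.32), a call lost with those settings too and without DMSO replicate 2 (edgeR adjusted p = 0.181) or either of THZ1 24 h replicates 1 and 2 (0.156 and 0.136). The Mediator subunits that rose were MED18, MED30, MED24 and MED12L. MED30 went from 54.0, 34.2 and 51.4 CPM to 126, 91.5 and 85.3 (1.12, SE 0.24), a difference that was -0.01 with library totals and -1.04 with ribosomal protein mRNAs as the reference. MED18, a movable head subunit, had 0, 0.348 and 0.548 CPM in DMSO and 3.86, 2.14 and 3.65 at 24 h (3.38, SE 0.71), from very few counts in the controls. MED24 rose by 0.77 and MED12L by 1.51. They were at -1.44 and -0.70 with ribosomal protein mRNAs as the reference, and MED24 was at -0.36 with library totals.

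Among the remaining factors, GTF2E1 had the deepest fall of the 64 members at 24 h, to 1.21, 1.02 and 1.67 CPM (log2 fold change -4.60, SE 0.22, edgeR adjusted p = 7.5e-11). GTF2A1 fell from 102, 94.8 and 97.5 CPM to 28.7, 25.4 and 26.2 (-1.87, SE 0.11) while its TFIIA partner GTF2A2 rose from 90.4, 57.2 and 88.9 to 190, 143 and 149 (1.03, SE 0.22); the GTF2A2 difference was -0.09 with library totals and -1.12 with ribosomal protein mRNAs. TAF5 fell to 1.33, 2.35 and 2.30 CPM (-3.14, SE 0.22), TAF6L by 2.88, TAF1 by 1.69 and TAF5L by 1.01. TAF10 rose to 37.2, 47.5 and 35.2 CPM (2.92, SE 0.21, edgeR adjusted p = 5.5e-09), the largest rise after MED18, and stayed higher under all 5 scalings.

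TAF6 (1.24, SE 0.20) and TAF15 (0.60, SE 0.16) also rose at 24 h. With ribosomal protein mRNAs as the reference TAF6 was at -0.97 and TAF15 at -1.62, and TAF15 was at -0.54 with library totals. The small rises of TAF8 (0.52) and TAF13 (0.93) did not outlast the loss of a library: TAF8 without replicate 1 or 3 of DMSO or replicate 1 of THZ1 at 24 h had edgeR adjusted p values of 0.172, 0.141 and 0.328, and TAF13 without DMSO replicate 1 or THZ1 24 h replicate 1 had 0.118 and 0.0744. TAF8 and TAF13 were at -0.63 and -0.22 with library totals, and at -1.74 and -1.32 with ribosomal protein mRNAs as the reference.

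The times of THZ1 were then compared directly, without the DMSO libraries. From 4 h to 24 h, 34 members fell and 19 rose, where 35.7% of all genes fell and 31.4% rose. With TMM scaling a group of early falls had ended by 24 h. TAF7 stood at 304, 246 and 240 CPM, above both its 4 h and its DMSO libraries (24 h against 4 h 2.15, SE 0.21, edgeR adjusted p = 3.2e-07). At 24 h against DMSO it was higher by 0.92, with -0.20 under library totals and -1.23 under ribosomal protein mRNAs. MED17 returned to 6.28, 5.31 and 3.13 CPM (2.83, SE 0.32) and MED26 to 3.62, 2.76 and 3.76 (3.04, SE 0.43). Each then overlapped DMSO, with differences from it of 0.48 (SE 0.28) and 0.70 (SE 0.36). For MED17 the values under library totals and ribosomal protein mRNAs, which lower the median of all genes, are not given here. Its return is thus described with TMM scaling only. The difference of MED26 from DMSO at 24 h depended on the setting. It was called higher with RLE factors (1.03), upper-quartile factors (1.09), DESeq2 (1.03) and the transcript-length covariate (0.75), and without DMSO replicate 2 (1.22, edgeR adjusted p = 0.00449) or the 3 libraries apart (1.22). It was at -0.44 with library totals and called lower with ribosomal protein mRNAs as the reference (-1.55). MED18, at 0.0949, 0.0530 and 0.0931 CPM at 4 h, differed most between the times (5.20, SE 0.88).

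Other members fell between the times. POLR2D (-2.35, SE 0.15) fell further, and MED1 (-2.68, SE 0.23) and MED21 (-2.33, SE 0.33), which had not been called at 4 h, fell below their 4 h libraries. For MED7 the test between the times made no call (-0.22, SE 0.34). MED21 was at 26.9, 17.1 and 21.5 CPM at 4 h and 7.0, 3.47 and 2.71 at 24 h.

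**Figure D4:**
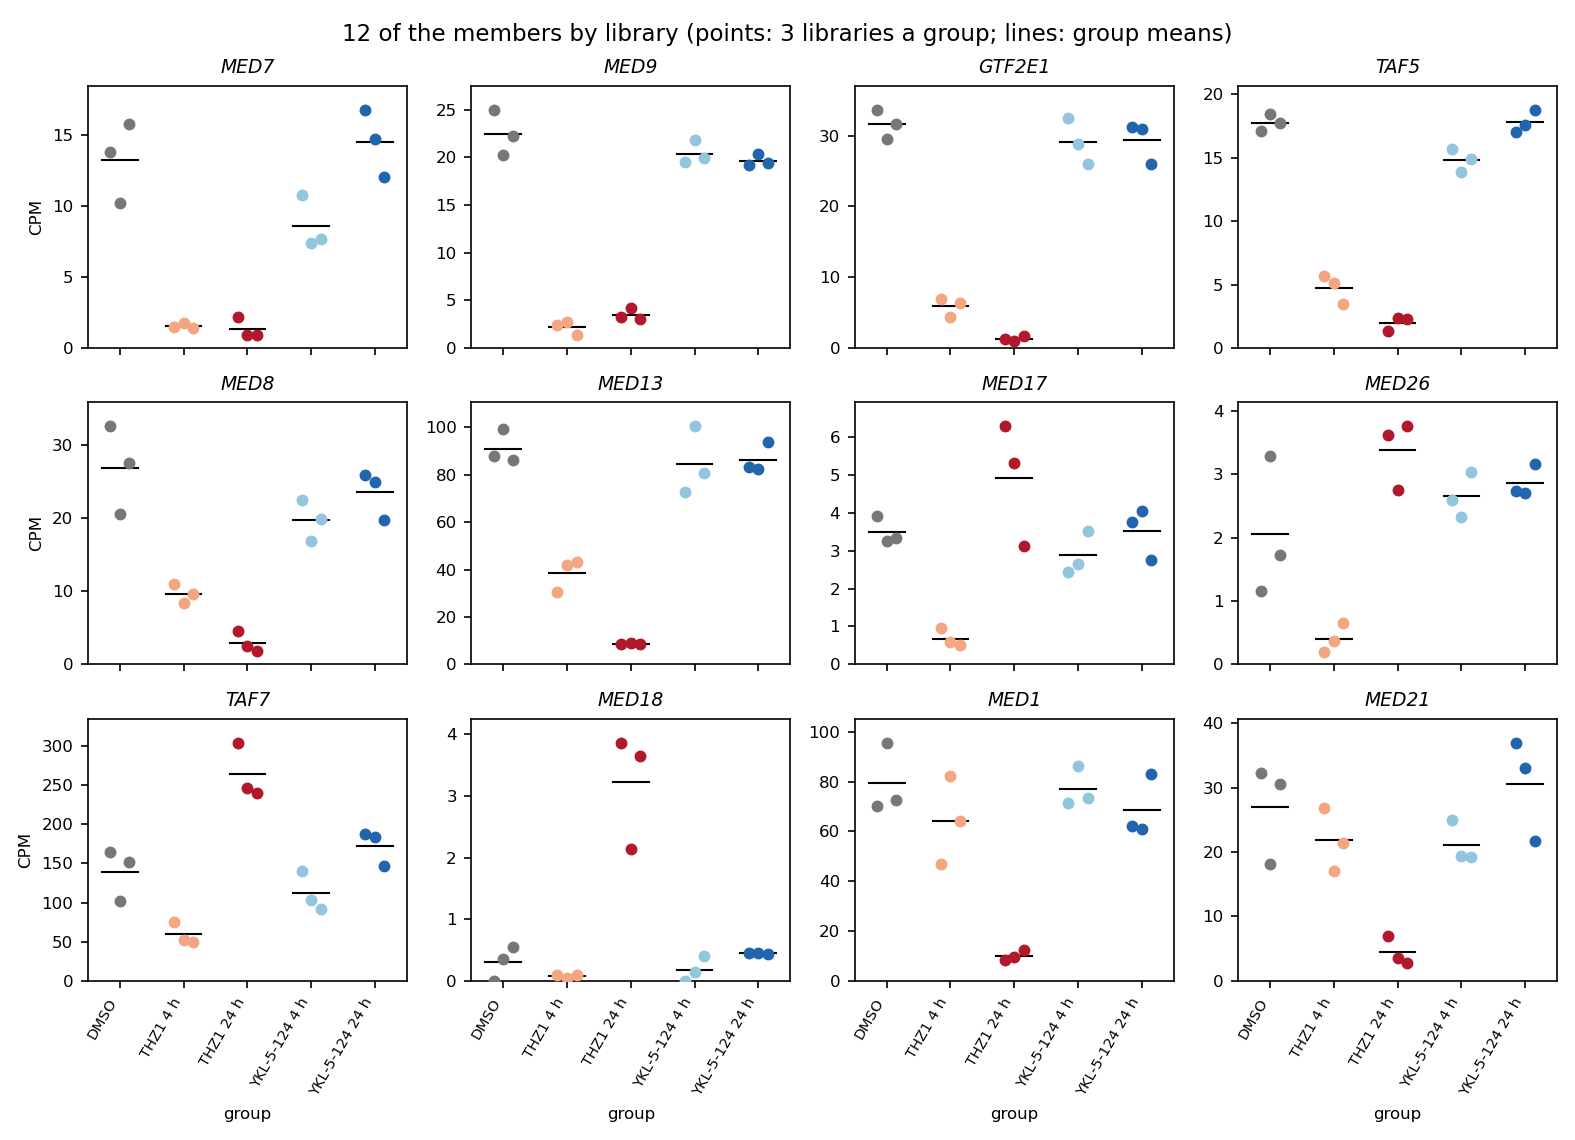
TMM-scaled CPM (vertical axis, from 0) of 12 members in the 5 groups (horizontal axis); each point is a library and each line the mean of 3. MED7, MED9, GTF2E1 and TAF5 are low at both THZ1 times, MED17, MED26 and TAF7 are low at 4 h and back at or above the DMSO level at 24 h, and MED1 and MED21 are low at 24 h.

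Few members were called with YKL-5-124. At 4 h edgeR called 0 of 64 higher and 0 lower, where 0.0553% of all genes were higher and 0.463% lower. In simulated counts for this comparison 17.6% of 1.5-fold and 77.0% of 2-fold changes were recovered, so small changes could be missed. At an unadjusted p under 0.05 there were 2 higher and 3 lower, and DESeq2 called 0 higher and 1 lower. With the transcript-length slope as a covariate 3 were higher and 6 lower at 4 h, where that fit called 2.21% and 5.15% of all genes, and 10 higher and 15 lower at 24 h, where it called 18% and 24.6%. In the group fit at 24 h 4 members were higher and 3 lower, where 8.92% of all genes were higher and 12.7% lower, and the members' median was -0.06 beside -0.04 over all genes. POLR2L rose to 407, 417 and 369 CPM (0.51, SE 0.10, edgeR adjusted p = 0.0028), above its DMSO libraries. TAF15, an RNA-binding protein of the FET family, fell from 122, 162 and 136 CPM to 78.1, 82.9 and 94.0 (-0.72, SE 0.16), MED24 from 35.3, 43.3 and 36.7 to 25.1, 22.5 and 27.4 (-0.62, SE 0.15) and MED23 to 49.7, 48.9 and 54.9 (-0.47, SE 0.09), each without overlap.

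The other rises at 24 h of YKL-5-124 lost their calls when some libraries were left out. TAF10 (0.73, SE 0.20) missed the threshold without DMSO replicate 3 (edgeR adjusted p = 0.0792) or YKL-5-124 24 h replicate 2 or 3 (0.0604 and 0.0504). GTF2A1 (0.33, SE 0.10) missed it when any of the 6 libraries was left out (0.0592 to 0.108), and MED29 (0.36, SE 0.10) for all but DMSO replicate 2 (0.0512 to 0.0865). The count of members called higher was 1 without DMSO replicate 3 or without YKL-5-124 24 h replicate 2 or 3, and 2 without DMSO replicate 1 or YKL-5-124 24 h replicate 1. Over these omissions 5.34% to 6.92% of all genes were higher. DESeq2 called 5 members lower at 24 h. With ribosomal protein mRNAs as the reference 27 members were called higher and 0 lower, where 35.4% of all genes were higher and 1.38% lower, and MED23 turned to 0.13. From 4 h to 24 h of YKL-5-124, 3 members rose and 3 fell, where 9.22% of all genes rose and 11.9% fell. With the transcript-length covariate 8 rose and 17 fell, where 18.4% and 24% of all genes did. TAF15 (-0.91, SE 0.16), MED24 (-0.83, SE 0.15) and MED23 (-0.46, SE 0.09) fell. MED7 (0.75), TAF7 (0.62) and POLR2L (0.31) rose, with none of these 3 called without YKL-5-124 4 h replicate 2 or 3 or without YKL-5-124 24 h replicate 1 or 2.

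At the shared dose of 100 nM the compounds were tested against each other at each time. At 4 h, 15 members were lower and 5 higher with THZ1 than with YKL-5-124, where 21.9% of all genes were lower and 11.4% higher. MED9 was at 19.5, 21.8 and 19.9 CPM with YKL-5-124 at 4 h (THZ1 against YKL-5-124 -3.23, SE 0.21), GTF2E1 at 32.5, 28.9 and 25.9 (-2.30, SE 0.18), MED26 at 2.59, 2.32 and 3.04 (-2.69, SE 0.42) and MED7 at 10.8, 7.42 and 7.70 (-2.49, SE 0.27). All 4 were lower in every THZ1 library. The higher members were POLR2E (0.37), MED12L (1.1), MED14 (0.50), GTF2F2 (0.34) and POLR2L (0.31), and the count was 3 without THZ1 4 h replicate 2 or 3, or without YKL-5-124 4 h replicate 1 or 2. With the transcript-length slope as a covariate 23 were lower and 17 higher, where 28.9% and 25% of all genes were. POLR2E was at -0.07, GTF2F2 at -0.08 and POLR2L at -0.13 with ribosomal protein mRNAs as the reference.

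At 24 h, 34 members were lower and 18 higher with THZ1 than with YKL-5-124, where 44.1% of all genes were lower and 31.8% higher. The differences were largest for GTF2E1 (-4.49, SE 0.22), MED7 (-3.46, SE 0.31), MED13 (-3.30, SE 0.16) and TAF5 (-3.14, SE 0.22) among the lower members. Among the higher were MED18 (2.82, SE 0.67), POLR2E (2.54, SE 0.10), POLR2I (2.30, SE 0.30) and TAF10 (2.19, SE 0.21), with -0.23, -0.47 and -0.60 for the last 3 with ribosomal protein mRNAs as the reference. The change from 4 h to 24 h differed between the compounds for 48 members, 30 with a more negative and 18 with a more positive change under THZ1, where 31% and 26.6% of all genes were called.

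Ratios of partner mRNAs within a library do not depend on how libraries are scaled. They still carry the difference between groups in the balance of long against short transcripts. Partners differ in exonic length either way: POLR2G has 1923 bases beside 5226 in POLR2D, and TAF5L has 6412 beside 3268 in TAF5. The part of length in the ratios was not tested. For 18 pairs of subunits or paralogues the log2 ratio of CPM per kb was taken in each library; the pairs were drawn up after the values were known, and with 3 libraries against 3 an exact two-sided permutation test cannot go below 0.10, so the ratios are described without a test. At THZ1 24 h the ratios of 16 pairs lay wholly to one side of DMSO, where 73.6% of all pairs among the 13254 tested genes with reads in every library did, and at THZ1 4 h those of 12, where 47.2% did. At YKL-5-124 4 h they were 2 pairs, where 16.8% of all pairs did, and at YKL-5-124 24 h 6, where 39.4% did. Such separation was thus common among all genes, and the counts of pairs say nothing particular of these members. POLR2E to POLR2B went from a geometric mean of 1.51 in DMSO to 1.97 at 4 h and 32.4 at 24 h of THZ1. GTF2E2 to GTF2E1 went from 2.05 to 11.4 and 32.4, GTF2A2 to GTF2A1 from 1.67 to 2.55 and 12.7, and the stalk pair POLR2G to POLR2D from 5.82 to 13.4 and 162.

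In Mediator, MED21 to MED7 was 1.81 in DMSO, 12.6 at 4 h and 2.96 at 24 h, since MED7 was low at both THZ1 times and MED21 at 24 h. Paralogues shifted in the same direction at both times: MED13L to MED13 went from 0.454 to 1.18 and 2.22, TAF5L to TAF5 from 1.11 to 3.21 and 5.05, and TAF6L to TAF6 from 1.1 to 0.273 and 0.0624. The histone-fold pair TAF9 to TAF6 kept overlapping values, at 8.92, 7.37 and 9.55, as did GTF2F2 to GTF2F1, at 1.68, 2.03 and 2.49. Under YKL-5-124 at 24 h the ratio of POLR2L to POLR2D was above DMSO by 0.81 on the log2 scale, against 5.16 with THZ1 at 24 h.

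**Figure D5:**
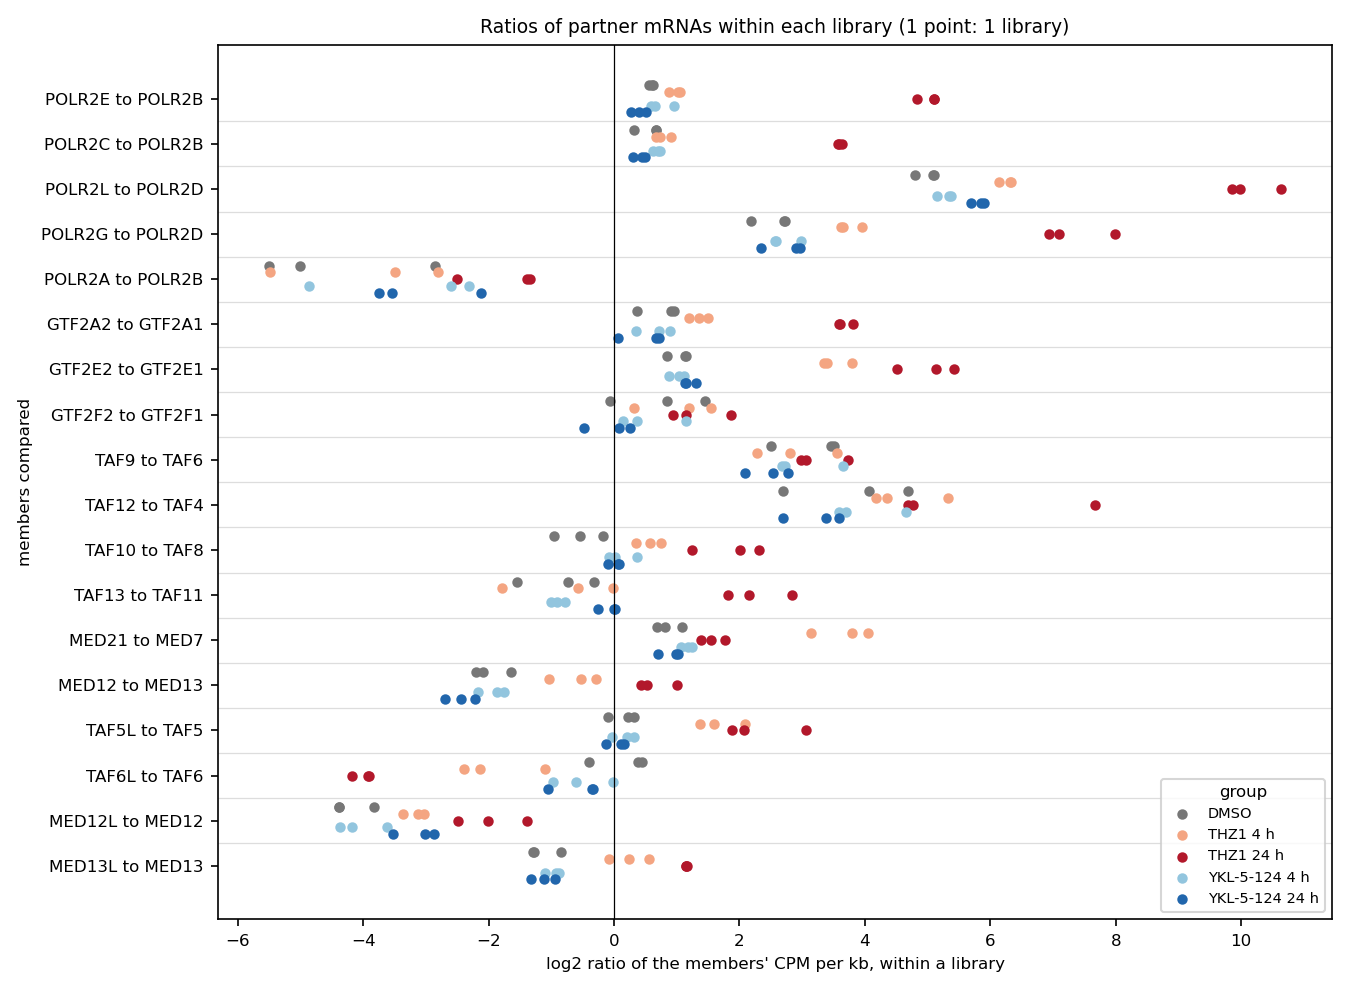
Log2 ratio of CPM per kb between 18 pairs of members (rows) within each library (horizontal axis; 1 point per library, coloured by group). The dark red THZ1 24 h points stand clear of the grey DMSO points in 16 pairs, and the blue YKL-5-124 24 h points in 6.

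The exon number of the early falls, counted in each gene's longest protein-coding GENCODE transcript, varied widely. For POLR2A and MED25 that transcript has 2083 and 2396 bases beside exonic lengths of 8357 and 6120, so their exon numbers and GC content are uncertain. Of the 10 deepest falls at THZ1 4 h, TAF7 has 1 exon in its GENCODE transcript, MED7 and MED9 have 2, MED26 has 3, GTF2E1 has 5 and MED8 has 7, while TAF5 and TAF6L have 11, MED17 has 12 and MED13 has 30. Of the 21 members with 1 to 4 exons 8 fell at 4 h of THZ1 (38.1%, beside 45.7% of the 2512 protein-coding genes with as few), and of the 21 with 10 or more 5 fell (23.8%, beside 18.5% of 5779). Across the 64 members exon number and the 4 h log2 fold change had a Spearman rho of 0.30, and across 12186 protein-coding genes 0.25, genes that share libraries and are not independent replicates. At 24 h the members' rho with exon number was -0.14, and that with the GC content of the transcript was 0.31 against 0.15 over all genes.

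Promoters were looked at for members whose partner moved the other way. Of the 67 genes 50 matched the RefSeq table (GRCh38.p14), whose start lay within 100 bases of the start in the count table for 35, with a median distance of 40.5 bases. The 150 bases before the start are printed for GTF2A1 and GTF2A2, the TFIIA partners, and for POLR2D and POLR2E, the Pol II subunits with the deepest fall and the largest rise at 24 h. They are also printed for MED9 and MED17, early falls of which the second had ended by 24 h with TMM scaling. Each reads 5′ to 3′ on the gene's strand, and capitals mark the ETS letters CCGGAAG or their reverse complement.
GTF2A1 (chr14:81221391-81221540, minus strand): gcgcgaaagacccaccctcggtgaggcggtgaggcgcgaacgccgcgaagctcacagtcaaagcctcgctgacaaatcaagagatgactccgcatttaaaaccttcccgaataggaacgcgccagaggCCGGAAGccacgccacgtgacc
GTF2A2 (chr15:59657516-59657665, minus strand): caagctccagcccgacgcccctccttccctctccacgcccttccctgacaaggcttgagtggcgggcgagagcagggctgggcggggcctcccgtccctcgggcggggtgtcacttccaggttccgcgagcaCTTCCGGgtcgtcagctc
POLR2D (chr2:127858156-127858305, minus strand): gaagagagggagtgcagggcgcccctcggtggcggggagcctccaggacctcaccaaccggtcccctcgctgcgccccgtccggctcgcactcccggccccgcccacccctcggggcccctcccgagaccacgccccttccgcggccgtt
POLR2E (chr19:1095376-1095525, minus strand): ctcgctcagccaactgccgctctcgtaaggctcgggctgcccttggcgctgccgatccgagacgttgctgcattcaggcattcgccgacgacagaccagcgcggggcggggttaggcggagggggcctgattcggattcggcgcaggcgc
MED9 (chr17:17476850-17476999, plus strand): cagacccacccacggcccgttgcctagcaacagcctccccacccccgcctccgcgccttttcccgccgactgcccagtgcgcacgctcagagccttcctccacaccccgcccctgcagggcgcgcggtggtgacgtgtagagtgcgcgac
MED17 (chr11:93784132-93784281, plus strand): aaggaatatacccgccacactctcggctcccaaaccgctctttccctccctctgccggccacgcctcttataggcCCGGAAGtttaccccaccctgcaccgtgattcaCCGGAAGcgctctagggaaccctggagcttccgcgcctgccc

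Each motif was searched on both strands of the window, without regard to overlap with another. The ETS letters CCGGAAG were in 14 of the 50 windows (28%, beside 9.80% of 14466 protein-coding windows), and both TFIIA genes held them although their mRNAs moved apart at 24 h. By call at THZ1 24 h they were in 5 of 27 members that fell and 5 of 13 that rose. TATAAA was in 0 of 50 (6.15% of all windows), GGGCGG in 25 (50.7%), CCAAT in 11 (26.6%), CACGTG in 5 (5.79%), GCGCATGC in 2 (3.10%) and GATGGCG in 1 (1.68%).

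Partner genes outside the name rule gave further values. TBP, the TATA-binding core of TFIID, fell at 4 h of THZ1 by 1.20 and at 24 h by 2.48, its paralogue TBPL1 by 1.60 and 3.82, and CDK8, the kinase of the Mediator module, by 0.55 and 3.0. Of all genes 25.1% fell and 16.9% rose at 4 h of THZ1, and 44% fell and 32.3% rose at 24 h. The lists below are small, and none was tested against those shares. Of the 9 such partners 3 fell and 2 rose at 4 h, and 6 fell and 1 rose at 24 h. Of the 9 TFIIH genes tested 2 fell and 1 rose at 4 h, and 5 fell and 3 rose at 24 h, with CDK7 itself lower by 0.43 and 3.64. Of 19 subunits specific to Pol I or Pol III 12 fell and 0 rose at 4 h, and 14 fell and 1 rose at 24 h; of 16 SAGA partner genes 6 fell and 3 rose, then 10 and 4; and of 12 Pol II assembly factors and tail phosphatases 4 fell and 1 rose, then 9 and 2. With YKL-5-124 at 24 h, 8 of the 19 Pol I or Pol III subunits fell and 0 rose, and 2 of the 9 TFIIH genes fell. Of all genes 12.7% fell and 8.92% rose in that comparison.

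Reads of overlapping genes limit some of these values, since 25 of the 64 members overlap another tested gene, 5 of them on the same strand, and how strand was treated in counting is not stated in the sources used here. MED17 overlaps TAF1D, POLR2I overlaps TBCB, POLR2L overlaps CD151, GTF2E1 overlaps RABL3, TAF5 overlaps USMG5, TAF10 overlaps ILK and TAF9 overlaps RAD17. On the same strand TAF15 overlaps AP2B1 (156.9 CPM on average over all libraries beside 380.7), POLR2H overlaps EIF2B5 (142.7 beside 55.9), TAF9 overlaps AK6 (91.3 beside 17.6), and MED21 and MED13 overlap genes of under 1 CPM that are not protein-coding. The values of these genes, the calls of TAF15 under both compounds included, are uncertain, as are those of POLR2J, which has near-identical copies. The levels of MED17 and POLR2I were low beside those neighbours, with means over all libraries of 3.09 CPM beside 82.1 for TAF1D and 11.6 beside 367 for TBCB. The part of the neighbours' reads in these values was not tested.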

How the data were processed

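RNA-seq was done on 15 libraries of PATU-8988T. The values are whole-number read counts per gene that the authors deposited in 1 table with gene positions and exonic lengths. The tools named per the submitters' processing notes are featureCounts 1.5.0-p3, STAR 2.6.1d and DESeq2, with build GRCh38; for the annotation release, strand setting and multimapping reads the sources used here give nothing. Raw counts were fitted over all 15 libraries with a group term in edgeR 4.0.16 (R 4.3.3), with TMM factors, filterByExpr (minimum count 10, minimum total 15), quasi-likelihood tests and Benjamini-Hochberg adjustment over 14461 genes at 0.05. The steps were tested on simulated counts, with 51 to 81 genes changed by each fold in each treated group. They recovered 16.9% to 24.7% of 1.5-fold, 61.4% to 77.0% of 2-fold and 94.4% to 98.4% of 4-fold changes. Of the calls, 4.72% to 8.09% were false. Far more genes than were changed there were called with THZ1, so the simulation does not cover shifts of that extent. CPM are TMM-scaled; levels of different genes are compared per kilobase of exonic length.

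The members and gene lists were chosen with earlier results of these data known. Named by rule were, against DMSO, the 5 largest called rises and falls without overlap at a mean of at least 1 CPM, the largest called change each way in each role group, the 4, 3 and 3 largest each way between compounds, between times and in the interaction, and fixed genes (POLR2A, TAF1, TAF10, MED1, MED12, MED13, MED14, MED26 and paralogue pairs); of each other list, at most the 3 largest changes. Other members named complete a complex or were picked after their values were seen. The alternatives tried were other scalings, no filter, the groups compared alone, a replicate block, leaving out each library and DESeq2 1.42.0. A transcript-length covariate, leaving out 3 libraries, the partner ratios and the POLR2A comparisons with YKL-5-124 were added after seeing the data. Exons and GC content came from the longest protein-coding transcript of each gene in GENCODE 29, and promoters from RefSeq. All 67 genes were found in GENCODE 29, 61 of them with the same start and end as in the count table.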

Additional observations from a re-analysis of the deposited data

Results flagged for a closer look

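For 6 Mediator members the change from 4 h to 24 h differed between THZ1 and YKL-5-124 by a test of that difference (edgeR, quasi-likelihood, with Benjamini-Hochberg adjustment); they are the 3 largest in each direction. The difference of the log2 changes, THZ1 minus YKL-5-124, was 3.87 for MED18 (SE 1.31, adjusted p = 0.0174), 2.92 for MED26 (SE 0.55, adjusted p = 0.00031) and 2.54 for MED17 (SE 0.42, adjusted p = 9.5e-05). It was -2.86 for MED21 (SE 0.44, adjusted p = 4.9e-05), -2.51 for MED1 (SE 0.30, adjusted p = 3.7e-06) and -2.22 for MED6 (SE 0.25, adjusted p = 2.4e-06). MED18 rests on few counts and was not called without YKL-5-124 4 h replicate 3 (adjusted p = 0.16).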

How the results depend on the processing

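Counts of members called moved most with the scale and the transcript-length covariate. With library totals the count higher was 3 and 7 for THZ1 against DMSO at 4 h and 24 h, 1 and 8 for THZ1 against YKL-5-124 at 4 h and 24 h, 7 for THZ1 24 h against 4 h, 5 for YKL-5-124 24 h against 4 h and 5 for the compound by time interaction. In the same order, 4.03%, 15.7%, 1.38%, 13.8%, 15.8%, 15.8% and 10.8% of all genes were higher. With ribosomal protein mRNAs as the reference the counts higher and lower were 0 and 31 for THZ1 4 h against DMSO, 1 and 57 with THZ1 at 24 h, 27 and 0 with YKL-5-124 at 24 h, 0 and 25 for THZ1 against YKL-5-124 at 4 h, 0 and 60 at 24 h, 4 and 54 for THZ1 24 h against 4 h, 39 and 0 for YKL-5-124 24 h against 4 h, and 0 and 57 for the interaction. In the same order, 0.201%, 3.97%, 35.4%, 0.18%, 1.92%, 5.23%, 46.9% and 1.36% of all genes were higher. The shares lower were 38.1%, 81.1%, 1.38%, 30.8%, 89.5%, 71.8%, 0.906% and 78.6%. With transcript length as a covariate 20 were higher for THZ1 4 h, and the counts higher and lower for YKL-5-124 were 3 and 6 at 4 h and 10 and 15 at 24 h, with 17 and 23 for THZ1 against YKL-5-124 at 4 h and 8 and 17 for YKL-5-124 24 h against 4 h. In the same order, 28.4%, 2.21%, 18%, 25% and 18.4% of all genes were higher. For the last 4 comparisons 5.15%, 24.6%, 28.9% and 24% were lower. With no filter the count higher was 1 for YKL-5-124 4 h and 3 for THZ1 against YKL-5-124 at 4 h, which was 2 with only the groups compared and 8 in DESeq2; DESeq2 also gave 1 lower for YKL-5-124 4 h and 5 lower for YKL-5-124 24 h. In the fit with only the groups compared 7.09% of all genes were higher for THZ1 against YKL-5-124 at 4 h. The shares of all genes with no filter and in DESeq2 are not given here. The cause of each move was not tested.

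Leaving out each library in turn gave 7 to 10 higher with THZ1 at 4 h, 1 to 6 with YKL-5-124 at 24 h, 3 to 5 for THZ1 against YKL-5-124 at 4 h and 0 to 3 for YKL-5-124 24 h against 4 h; the other counts stayed within 1.5 times. The labels do not say what a replicate number shares, and same-numbered libraries of 2 groups correlated in their deviations with r from -0.43 to 0.49 over 30 pairs (median 0.20, 18 over 0.1, against a median of -0.14 for other pairs); 9 of 15 libraries correlated best with their own number, and the 10 pairs of replicates numbered 1 all lay above 0.1. Since not every pair did, the numbers were not taken to pair the libraries. The replicate block changed the count lower for YKL-5-124 24 h from 3 to 5 and no other count by over 1.5 times; it also called POLR2A at YKL-5-124 24 h (1.4).

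Of the 19 members called higher at THZ1 24 h against DMSO, 9 turned sign with library totals and 16 with ribosomal protein mRNAs as the reference. Of the 12 called higher at THZ1 4 h, 7 turned sign with ribosomal protein mRNAs as the reference. Of the members named in the text, signs turned as follows. With ribosomal protein mRNAs as the reference they were POLR2E (-0.0077), POLR2L (-0.0041), POLR2F (-0.00026), GTF2F2 (-0.13), TAF15 (-0.092), POLR2A (-0.022), TAF1 (-0.19), MED12 (-0.36) and MED13L (-0.35) at THZ1 4 h against DMSO, and POLR2I (-0.080), POLR2L (-0.16), POLR2G (-0.51), POLR2J (-0.63), POLR2F (-1.08), POLR2C (-1.15), MED24 (-1.44), TAF8 (-1.74), TAF13 (-1.32), GTF2A2 (-1.12), TAF15 (-1.62), MED30 (-1.04), MED12L (-0.70), POLR2A (-1.99), MED26 (-1.55), TAF6 (-0.97) and TAF7 (-1.23) at THZ1 24 h. With the same reference MED23 (0.13) turned at YKL-5-124 24 h and MED23 (0.23) between the YKL-5-124 times, POLR2E (-0.066), GTF2F2 (-0.081) and POLR2L (-0.13) for THZ1 against YKL-5-124 at 4 h, and POLR2E (-0.23), POLR2I (-0.47) and TAF10 (-0.60) at 24 h. With library totals MED12 (-0.11) and MED13L (-0.11) turned at THZ1 4 h, and POLR2F (-0.047), POLR2C (-0.11), MED24 (-0.36), TAF8 (-0.63), TAF13 (-0.22), GTF2A2 (-0.091), TAF15 (-0.54), MED30 (-0.0060), POLR2A (-0.82), MED26 (-0.44) and TAF7 (-0.20) at THZ1 24 h. Leaving out 1 library, MED12 ranged from -0.086 to 0.44 and MED13L from -0.080 to 0.41 at THZ1 4 h, both negative without THZ1 4 h replicate 2, and POLR2A from -0.032 to 1.48 at THZ1 24 h, negative without DMSO replicate 1; MED1 (0.033) turned at THZ1 4 h without the 3 libraries apart in transcript length, an alternative chosen after seeing the data. The cause was not tested.

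Depth limits MED18, MED12L, MED11, MED26 and MED17, which lay under 4 CPM in every DMSO library.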
